A study of Zea mays with 48 samples.

Results

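The endosperm-restricted genes are 150 maize gene models whose RNA was abundant in endosperm at 5 days after pollination (DAP) and scarce in every kind of embryo that was sequenced beside it. They were chosen from the measured levels: a gene had to reach at least 5 CPM (the gene's count over the library total, scaled to 1000000) in all 6 endosperm libraries, which 13323 of 39656 gene models did, and these were ranked by the mean endosperm CPM over the highest mean CPM of the 7 embryo kinds plus 0.5. The top 150 were kept, leaving out 4 gene models set aside beforehand. The ratio of endosperm to embryo is therefore the criterion of choice and is given below only as a description, without a test.

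The study crossed the inbred lines B73 and Mo17 in both directions. The labels call the progeny B73xMo17 (BM) and Mo17xB73 (MB), with the seed parent written first in the usual way, so both crosses carried both parental genomes and differed in which parent bore the seed. Whole embryos dissected by hand were collected at 5, 7, 9, 11 and 13 DAP, embryos taken by laser capture microdissection (LCM) at 3 and 5 DAP, and endosperm at 5 DAP, with 3 biological replicates of each cross and 48 libraries in all. Each replicate was drawn from several ears, the hand-dissected embryo samples were large pools, and how the endosperm was separated from the rest of the kernel is not given in the sources used here. Counts of both parental alleles were summed, so nothing here speaks of the parental origin of a transcript. In such bulk samples fewer cells of a type and less RNA per cell cannot be told apart.

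Endosperm is the product of the second fertilisation event of flowering plants, in which a sperm cell fuses with the central cell, and it carries more copies of the maternal than of the paternal genome. It feeds the embryo, first through a basal transfer layer that takes up sugars and amino acids from the mother plant and through cells around the embryo, and later through starch and storage proteins of which the zeins are the best known in maize. At 5 DAP the tissue is passing from the syncytial and cellularising phase to cell types that precede grain filling.

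Library totals ran from 7130090 to 21698127 counts, and those of the endosperm from 7130090 to 14489244, so the endosperm held the shallowest libraries. The embryo markers lec1 and kn1 were near 0 in endosperm, at 0.334 ± 0.194 and 0.105 ± 0.0913 CPM (SD, n = 6), whereas the embryo-expressed genes vp1 and wox2A stood at 29.999 ± 5.81 and 35.8 ± 6.41 CPM. The 27 kDa gamma zein gene zp27 was present in endosperm at 937 ± 440 CPM, while o2, the storage protein activator opaque2, was at 0.856 ± 1.16 CPM. Summed over the 6 ovule and maternal marker genes found, endosperm libraries held 0.611 to 1.88 CPM. A pair of LCM libraries at 3 DAP, BM replicate 3 and MB replicate 1, stood apart from their group mates in overall expression, with mean correlations of 0.879 and 0.893. Results for LCM embryos at 3 DAP are followed by their values without this pair.

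In endosperm the mean levels of the 150 genes ran from 6.75 to 2963 CPM, with a median of 33.9 CPM against 28.8 CPM for all 13323 genes past the floor. Per kilobase, in the authors' FPKM, the median of the 150 was 28.0 against 17.0. In embryos the median of each gene's highest kind mean was 2.03 CPM, against 50.4 CPM for the genes past the floor. The set therefore held genes of ordinary as well as high endosperm level: 36 reached 100 CPM and 46 lay below 20 CPM. Low in embryos did not mean absent from them. Of the 150 genes, 17 had no read in any library of at least 1 embryo kind, 74 had at least 1 CPM in all 6 libraries of at least 1 embryo kind, and 38 had a read in each of the 42 embryo libraries. The highest embryo mean was under 1 CPM for 44 genes and at least 10 CPM for 31.

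Among endosperm replicates of the same cross, the median coefficient of variation was 16.8% for the 150 genes, against 8.77% for all genes past the floor.

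At the edge of the choice the ratios changed little. The last genes inside were GRMZM2G152822 (21.7 CPM in endosperm and 2.09 CPM in its highest embryo kind, ratio 8.39), GRMZM2G382569 (11.4 and 0.855 CPM, ratio 8.38) and GRMZM2G386155 (408 and 48.2 CPM, ratio 8.37). Just outside were GRMZM2G041065 (618 and 73.4 CPM, ratio 8.36), GRMZM2G374313 (9.96 and 0.693 CPM, ratio 8.35) and GRMZM2G423917 (333 and 39.4 CPM, ratio 8.35). The highest ratio was 55.6. The line thus falls where neighbouring ratios differ in the second decimal.

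**Figure D1:**
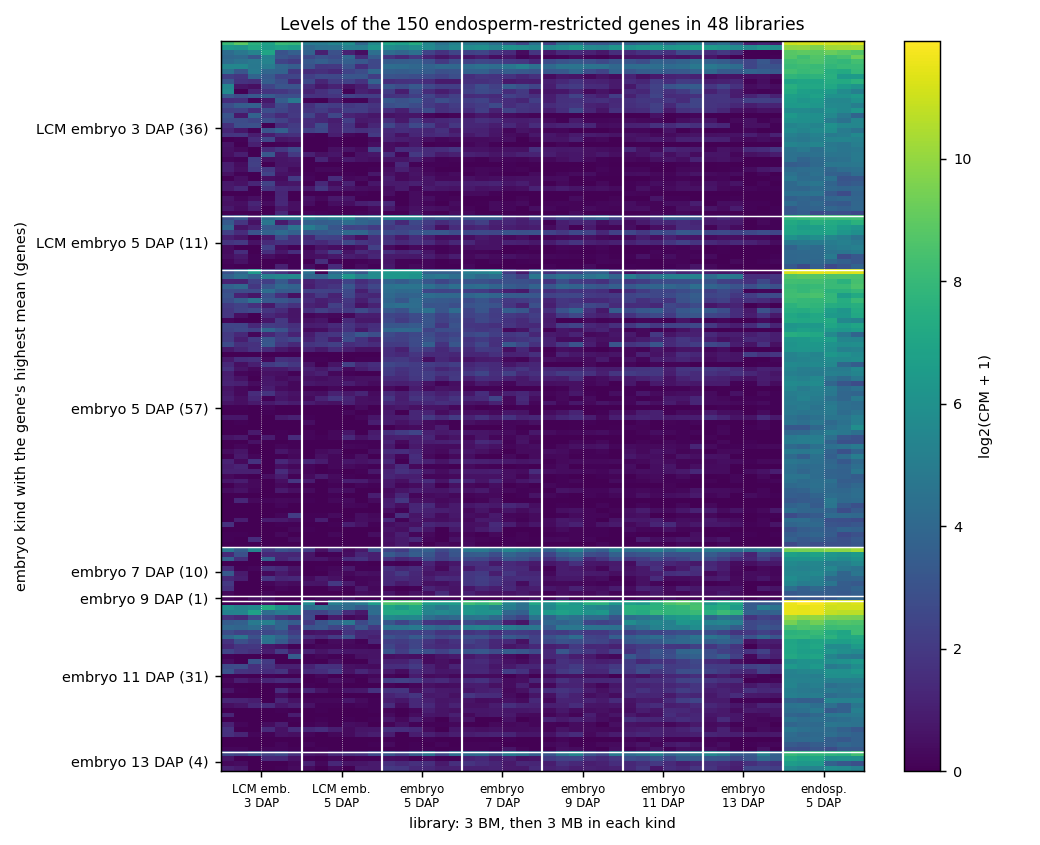
Level of each of the 150 genes (rows) in each of the 48 libraries (columns, 3 BM then 3 MB in each kind), as log2(CPM + 1). Rows are grouped by the embryo kind in which the gene's mean was highest, with the number of genes, and sorted within each block by endosperm mean; the endosperm columns are bright throughout, and embryo signal is faint and patchy, strongest at 5 DAP, in LCM embryos at 3 DAP and at 11 DAP.

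Few of these genes carry a name. A names table built on the Zm-B73-REFERENCE-NAM-5.0 assembly (RefSeq) held 103 of the 150 gene models, and 10 of them had a symbol other than a locus number. Roles that can be stated are those of sdh1, a sorbitol dehydrogenase, which converts sorbitol and fructose into each other, and of 4 transcription factors, MYB129 of the MYB family, EREB71 and EREB92 of the AP2/EREBP family, and bZIP46 of the basic leucine zipper family. The remaining named genes, TA1, endo1, hag, CA and AGA3a, are given by symbol alone, and the others by gene model.

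Judged per kilobase, the most abundant of the 150 in endosperm was GRMZM2G091054, at 7735 ± 1634 FPKM (SD, n = 6). It was followed by sdh1 (1747 ± 284 FPKM), endo1 (1552 ± 120 FPKM), TA1 (1357 ± 415 FPKM), GRMZM2G437435 (1106 ± 85.4 FPKM) and GRMZM5G850455 (1002 ± 237 FPKM). The step from GRMZM2G091054 to sdh1 was wider than the SD of either, and each step between neighbours further down was within the larger of their SDs. These SDs pool both crosses and include any difference between them, so they are not the spread of replicates alone. Counted in CPM, the 8 highest genes made up 15474 of the 25838 CPM that the 150 held together in the average endosperm library.

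GRMZM2G091054 read 3069, 3900.1 and 3428 CPM in the 3 BM and 2541, 2301 and 2542 CPM in the 3 MB endosperm libraries. In hand-dissected embryos it was highest at 11 DAP, with 106, 86.8 and 187 CPM in BM and 361, 449 and 326 CPM in MB. In LCM embryos at 3 DAP it had no read in 5 of 6 libraries and 0.548 CPM in the other. The crosses did not overlap in endosperm or at 11 DAP, with BM above MB in endosperm and MB above BM in the embryo.

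GRMZM2G437435 had the highest ratio of all. Its endosperm libraries read 2374, 2685 and 2839 CPM in BM and 2577, 2327 and 2514 CPM in MB, and its highest embryo kind was the hand-dissected 5 DAP embryo with 79.0, 78.7 and 79.5 CPM in BM and 11.5, 11.2 and 12.4 CPM in MB. The crosses overlapped in endosperm and lay far apart in the 5 DAP embryo. By 13 DAP it was at 0.811 ± 0.206 CPM in BM and 0.0776 ± 0.0772 CPM in MB embryos (n = 3).

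The sorbitol dehydrogenase gene sdh1 read 2977, 2781 and 3018 CPM in BM endosperm and 2089.9, 2228 and 2213 CPM in MB endosperm. Its highest embryo kind was the 11 DAP embryo, at 227 ± 62.6 CPM (n = 6), and its lowest the LCM embryo at 5 DAP, at 16.7 ± 4.38 CPM. Every BM endosperm library lay above every MB endosperm library. In hand-dissected embryos sdh1 stood at 79.8 ± 50.4 CPM at 5 DAP and at 48.8 ± 20.8 and 57.7 ± 25.6 CPM at 7 and 9 DAP. The change from 5 to 7 DAP was not called (edgeR's quasi-likelihood test, adjusted p = 0.288), and these ages overlapped.

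TA1 followed a like course, with 2949, 2859 and 3106 CPM in BM and 1800.3, 1658 and 1632 CPM in MB endosperm. Its embryo maximum was again at 11 DAP, at 218 ± 40.1 CPM. At 13 DAP the crosses parted, with 185, 281 and 218 CPM in BM and 12.2, 10.9 and 12.8 CPM in MB embryos.

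For endo1 the endosperm crosses overlapped, at 2074, 2272 and 2395 CPM in BM and 2239.9, 2082 and 2521 CPM in MB. Unlike the genes above, it was highest among embryos in LCM samples at 3 DAP, with 266, 483 and 202 CPM in BM and 117, 264 and 245 CPM in MB, and it was at 7.36 ± 7.38 CPM in hand-dissected embryos at 13 DAP. The 3 DAP libraries did not overlap with the LCM libraries at 5 DAP, where the mean was 36.8 ± 15.0 CPM.

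Per kilobase the transcription factor genes were less abundant, with endosperm means of 99.6 FPKM for EREB92, 22.3 for bZIP46, 21.6 for MYB129 and 17.8 for EREB71. EREB92 read 125, 112 and 112 CPM in BM and 120, 75.8 and 59.5 CPM in MB endosperm, and these overlapped. The bZIP46 libraries read 39.0, 37.4 and 37.6 CPM in BM and 34.1, 34.8 and 35.0 CPM in MB, and those of MYB129 30.6, 26.3 and 33.0 CPM in BM and 39.4, 41.0 and 37.3 CPM in MB. EREB71 read 27.5, 31.9 and 32.5 CPM in BM and 19.3, 8.47 and 6.97 CPM in MB endosperm. For the last 3 genes the crosses did not overlap, with BM above MB for bZIP46 and EREB71 and below it for MYB129. EREB71 had no read in any of the 6 embryo libraries at 9 DAP, which allows 3 counts over these libraries, and bZIP46 had embryo means of 0.200 to 2.74 CPM.

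**Figure D2:**
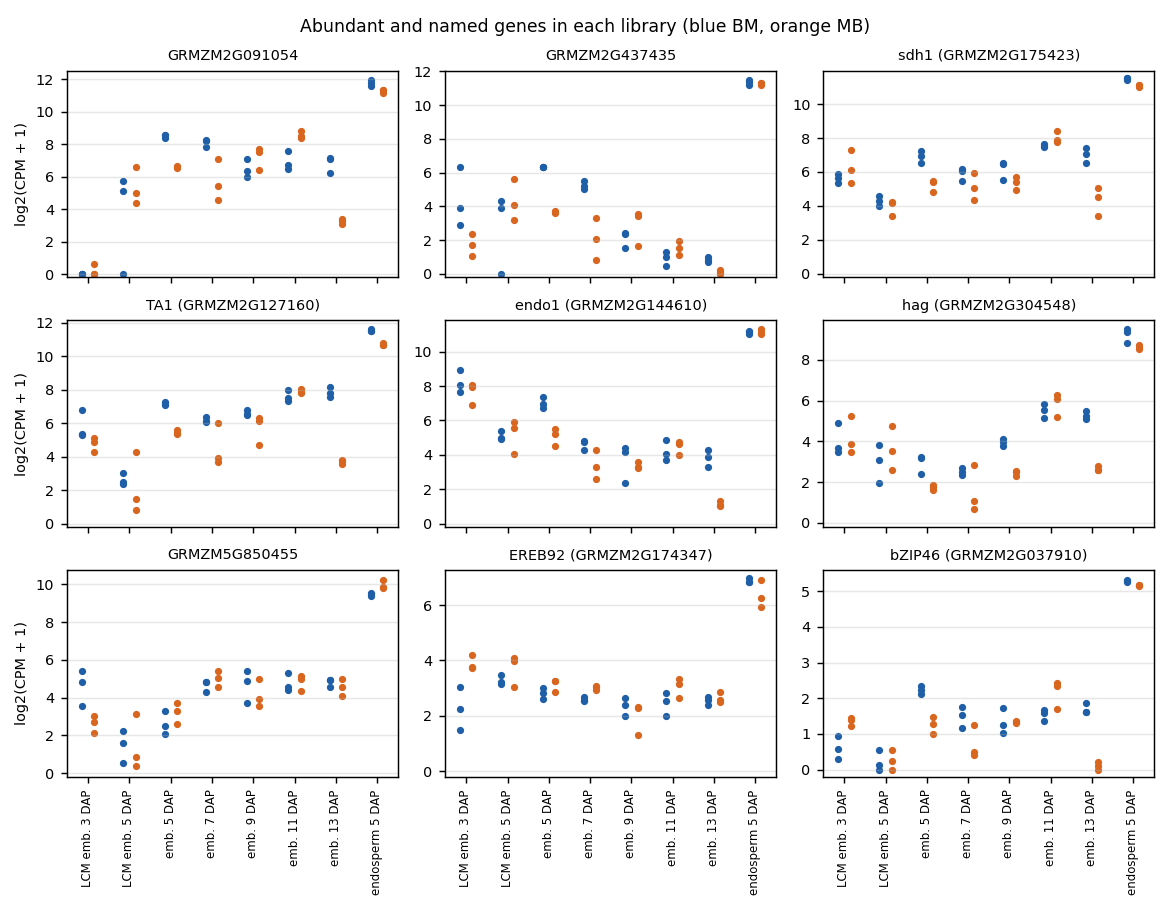
Level of 9 abundant or named genes in each library as log2(CPM + 1), by sample kind, with BM in blue and MB in orange and each point a library. Endosperm stands above all embryo kinds in each panel. Levels of sdh1, TA1 and hag rise from 9 to 11 DAP. Among embryos endo1 is highest in LCM samples at 3 DAP, and in several panels MB falls below BM at 5 and 13 DAP.

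Well-known genes of maize endosperm were looked up among the 150 by symbol. The names table used for this held 47.3% of all gene models and 103 of the 150. The 4 gene models set aside beforehand were left out of the lists as well, so none of them could be counted. None of the members of 12 lists (transfer layer, embryo-surrounding region, zeins, starch and sugar, endosperm regulators, auxin synthesis, imprinted or polycomb genes, proteases and inhibitors, and 4 marker lists) was included. Closest came a yuc gene, GRMZM2G091819, of a family that makes auxin, at rank 232 with 592 ± 231 CPM in endosperm and 93.0 CPM in its highest embryo kind. It was followed by incw1, a cell wall invertase, at rank 438, by fl3, a regulator of filling, at rank 516 (1371 ± 609 CPM against 409 CPM) and by the naked endosperm regulators Nkd2 and Nkd1 at ranks 615 and 903. Of the 26 zein genes found, 21 had an endosperm mean under 1 CPM at this age. Of the 11 transfer layer genes, 7 passed the floor and the best rank was 4456, held by betl10, whose mean was 174 ± 158 CPM in endosperm and 222 CPM in hand-dissected embryos at 5 DAP.

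In embryos the 150 genes were grouped by the kind in which each was highest. That the sum of a group peaks in its own kind follows from this grouping and is given as a description only. The hand-dissected 5 DAP embryo was the highest kind for 57 genes, the LCM embryo at 3 DAP for 36, the 11 DAP embryo for 31, the LCM embryo at 5 DAP for 11, the 7 DAP embryo for 10, the 13 DAP embryo for 4 and the 9 DAP embryo for GRMZM2G458082 alone. The 31 genes highest at 11 DAP included sdh1, TA1, GRMZM2G091054 and GRMZM2G097030 and held 925 CPM together at that age, against 347 CPM at 9 DAP and 350.3 CPM at 13 DAP. The 36 genes highest in LCM embryos at 3 DAP included endo1 and GRMZM2G092581 and held 570.2 CPM there and 140.4 CPM in LCM embryos at 5 DAP. Without the pair of libraries that stood apart they held 579 CPM, and 28 of the 36 were still highest at 3 DAP. The 4 genes highest at 13 DAP were GRMZM5G805485, GRMZM2G056629, GRMZM2G053869 and GRMZM2G438386, named here after their values were seen, and the median of their means was 1.34 CPM in 7 DAP and 5.98 CPM in 13 DAP embryos.

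Summed over the 150 genes, endosperm libraries held 27904 to 29039 CPM in BM and 21718 to 24664 CPM in MB. In embryos the sum moved with age and cross. At 5 DAP hand-dissected embryos held 1508 ± 133 CPM in BM and 651 ± 98.5 CPM in MB (SD, n = 3), at 7 DAP 914 ± 49.0 and 537 ± 117 CPM, and at 9 DAP 676 ± 195 and 578 ± 53.6 CPM. At 11 DAP the order turned, with 1023 ± 209 CPM in BM and 1602 ± 229 CPM in MB, and at 13 DAP it turned again, with 935 ± 156 and 302 ± 81.3 CPM. The crosses did not overlap at 5, 7, 11 and 13 DAP and overlapped at 9 DAP. BM held 2.32 times the MB sum at 5 DAP and 3.09 times at 13 DAP, and MB held 1.57 times the BM sum at 11 DAP. With 3 against 3 libraries the smallest p that an exact two-sided permutation test allows is 0.10, so the sums are given without one.

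LCM embryos held 973 ± 105 CPM at 3 DAP (n = 6, and 933 ± 108 CPM over the 4 libraries without the pair that stood apart) and 412 ± 123 CPM at 5 DAP (n = 6). Their crosses overlapped at 5 DAP. In the median gene, the level in hand-dissected 5 DAP embryos was 4.23% of the endosperm mean in BM and 2.81% in MB, and in LCM embryos at 5 DAP it was 0.792% and 1.05%.

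Marker sums were taken beside these. Over the 7 endosperm marker genes found, the summed level was 469 to 483 CPM in BM and 135 to 143 CPM in MB embryos at 5 DAP, 725 to 846 and 430.4 to 1066 CPM at 11 DAP, and 344 to 862 and 153 to 235 CPM at 13 DAP. The 11 transfer layer genes summed to 3511 to 3958 CPM in BM and 600.4 to 631 CPM in MB embryos at 5 DAP, to 144 to 772 and 262 to 522 CPM at 11 DAP, and to 179 to 311 and 8.78 to 18.5 CPM at 13 DAP. Both lists lay higher in BM without overlap at 5 and 13 DAP and overlapped at 11 DAP, where the 150 genes did not. In LCM embryos at 5 DAP the endosperm markers summed to 16.1 to 36.7 CPM in both crosses. The 5 embryo-surrounding region genes, kept as a list apart from these markers, summed to 3410 to 29482 CPM in the same LCM libraries. In hand-dissected embryos at 5 DAP that list summed to 9416 to 10688 CPM in BM and 1864 to 1895 CPM in MB. Embryo markers summed to 250.4 to 368 CPM in BM and 420 to 592 CPM in MB embryos at 5 DAP. The part of these markers' source in the levels of the 150 genes was not tested.

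**Figure D3:**
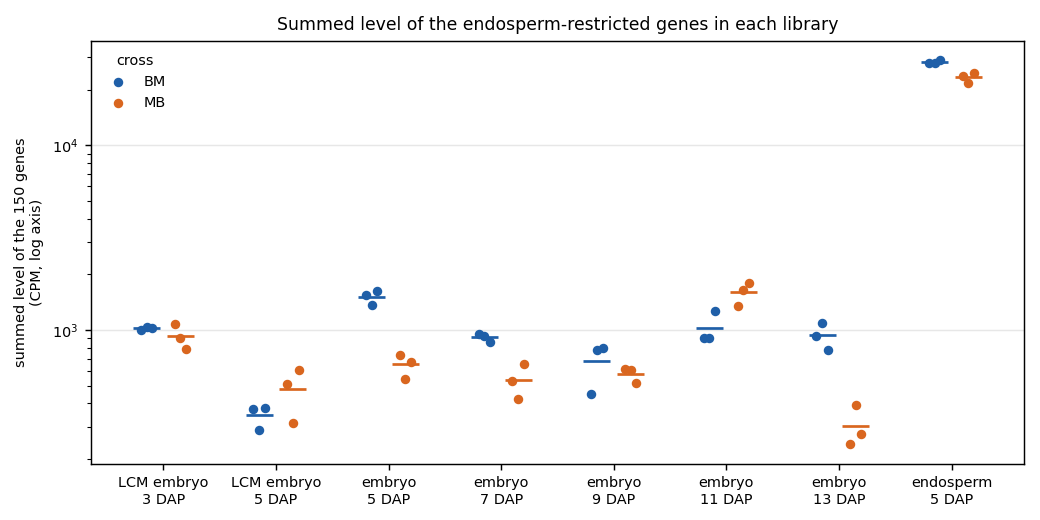
Summed level of the 150 genes in each library (points) and the mean of each cross (bars), in CPM on a log axis, by sample kind, BM in blue and MB in orange. Endosperm lies at 21718 to 29039 CPM, all embryo libraries lie far below, and BM exceeds MB at 5, 7 and 13 DAP while MB exceeds BM at 11 DAP.

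The reciprocal crosses were then compared within endosperm. The choice ranked genes on the mean over both crosses, so it did not select for this contrast, but its floor kept every library of either cross at 5 CPM or more and thus limited how far the lower cross could fall. In MB endosperm, 34 of the 150 genes were lower and 17 higher than in BM endosperm at an adjusted p under 0.05 (edgeR's quasi-likelihood test fitted on 25454 genes, with Benjamini-Hochberg adjustment over all of them). Of all genes tested, 16.9% were called, 9.64% lower and 7.27% higher. Of the genes past the endosperm floor, 19.8% were called, 9.73% lower and 10.1% higher. The median log2 fold change of the 150, MB over BM, was -0.24, against 0.00 for all genes tested. All 51 genes called had crosses that did not overlap. Among the 150, called or not, 58 had every BM library above every MB library and 22 the reverse. The share without overlap over all genes tested was not counted, so nothing is read from it.

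The most strongly lower gene in MB was GRMZM2G438386, which read 96.8, 81.1 and 85.1 CPM in BM and 11.9, 8.38 and 6.56 CPM in MB endosperm. Its log2 fold change was -3.32 ± 0.18 (SE, adjusted p = 7.47e-06). Every BM library was several times higher than every MB library. In hand-dissected embryos at 5 DAP the gene stood at 1.95 ± 0.323 CPM in BM and 1.59 ± 0.729 CPM in MB, and these overlapped.

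GRMZM2G073324 read 51.6, 46.3 and 52.4 CPM in BM and 14.2, 7.73 and 5.87 CPM in MB endosperm, a log2 fold change of -2.48 ± 0.32 (adjusted p = 0.00657). GRMZM2G323888 read 171, 156 and 142 CPM in BM and 47.9, 26.1 and 13.3 CPM in MB, a log2 fold change of -2.46 ± 0.51 (adjusted p = 0.0454). The MB libraries were the more scattered in both genes, with replicate 1 highest. For GRMZM2G323888 the call was lost without BM replicate 1, 2 or 3 or MB replicate 2.

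GRMZM2G052266 read 144, 117 and 126 CPM in BM and 41.0, 28.8 and 26.2 CPM in MB endosperm (log2 fold change -2.02 ± 0.17, adjusted p = 0.000204), and GRMZM2G054900 31.7, 31.8 and 34.1 CPM in BM and 12.7, 6.54 and 6.76 CPM in MB (-1.94 ± 0.23, adjusted p = 0.000818). AGA3a read 55.4, 40.9 and 35.9 CPM in BM and 15.6, 13.4 and 13.7 CPM in MB (log2 fold change -1.62 ± 0.15, adjusted p = 1.29e-05). These 3 genes were lower in each MB library than in any BM library. EREB71, with a log2 fold change of -1.45 ± 0.42, did not pass the test (adjusted p = 0.0932).

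In the other direction, GRMZM2G324131 read 12.6, 10.5 and 11.1 CPM in BM and 41.3, 36.3 and 40.9 CPM in MB endosperm. Its log2 fold change was 1.80 ± 0.12 (adjusted p = 3.46e-07), and no other gene higher in MB changed as much. The next were GRMZM2G125482 (7.78 ± 2.02 in BM and 16.1 ± 0.871 CPM in MB), AC219159.3_FG002 (9.73 ± 1.25 and 19.4 ± 5.28 CPM), GRMZM2G429378 (12.6 ± 2.67 and 25.03 ± 0.817 CPM), GRMZM2G468585 (16.3 ± 3.53 and 31.4 ± 4.51 CPM) and GRMZM5G851862 (13.8 ± 1.56 and 26.0 ± 1.27 CPM), with log2 fold changes between 0.91 and 1.02. None of them overlapped between the crosses, which held for every gene called and was required of the genes named here.

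Among the abundant genes the differences were smaller. TA1 (log2 fold change -0.81 ± 0.06, adjusted p = 6.27e-07), GRMZM2G097030 (-0.52 ± 0.07, adjusted p = 0.000138), GRMZM2G091054 (-0.50 ± 0.09, adjusted p = 0.00828) and sdh1 (-0.43 ± 0.06, adjusted p = 0.000121) were lower in MB, and GRMZM2G092581 (0.48 ± 0.09, adjusted p = 0.00552) and MYB129 (0.38 ± 0.11, adjusted p = 0.0219) were higher. GRMZM2G437435 (-0.09 ± 0.08) and endo1 (0.02 ± 0.09) did not pass, and neither did GRMZM5G850455 (0.50 ± 0.15, adjusted p = 0.0888), hag (-0.63 ± 0.18, adjusted p = 0.0810), EREB92 (-0.46 ± 0.28) and bZIP46 (-0.14 ± 0.09).

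Beside these values, the 7 endosperm markers summed to 1249.6 to 2038 CPM in BM and 617 to 851 CPM in MB endosperm, and the 11 transfer layer genes to 2013 to 2899.6 CPM in BM and 139 to 586 CPM in MB. Of the marker genes, 2 of 7 fell in MB and none rose (median log2 fold change -1.90), and of the transfer layer genes 3 of 11 fell and none rose (median -2.89). Other lists fell in part. Lower in MB were 5 of 15 starch and sugar genes (none higher, median -0.43) and 2 of 4 auxin synthesis genes (none higher). Endosperm regulators had 5 of 23 lower and 3 higher (median -0.43), and proteases and inhibitors 3 of 10 lower and 1 higher. Imprinted or polycomb genes had 1 of 8 lower, and embryo markers 1 of 8 higher. For zeins none of 24 was called (median -1.96). Neither aleurone markers nor embryo-surrounding region genes fell. The 3 aleurone markers summed to 394 to 441 CPM in BM and 463 to 485 CPM in MB endosperm (median 0.10). The 5 embryo-surrounding region genes summed to 41.8 to 308 and 42.6 to 446 CPM (median 0.69). No gene of these 2 lists was called. The part of the lists in the result was not tested. The count of genes called was 78 without MB replicate 1, 13 when a log2 fold change of at least 1 was required, and 3 when all 48 libraries shared a single fit.

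**Figure D4:**
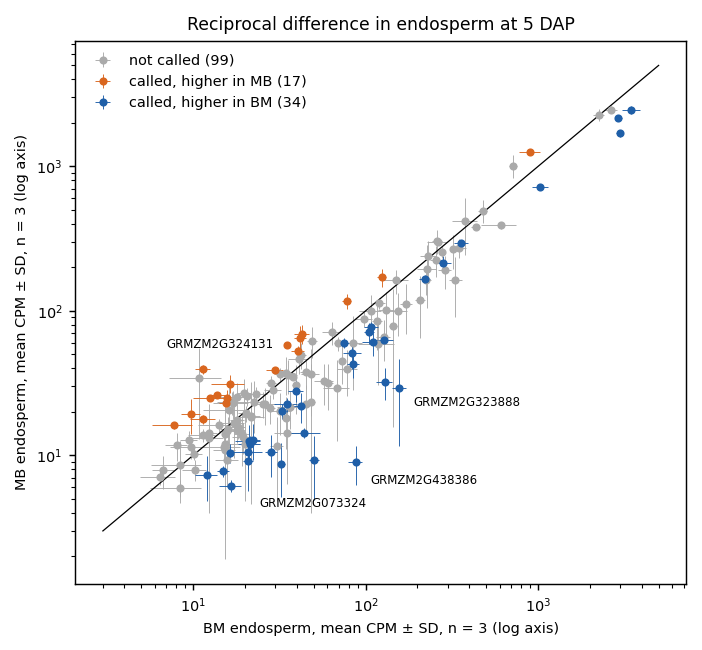
Mean level of each of the 150 genes in BM (horizontal) and MB (vertical) endosperm at 5 DAP, in CPM on log axes, with SD bars over 3 libraries and the line of equal level. Blue points (34 genes) were called lower and orange points (17 genes) higher in MB; GRMZM2G438386, GRMZM2G073324 and GRMZM2G323888 lie farthest below the line and GRMZM2G324131 farthest above it.

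The same contrast was made where these genes were scarce, in hand-dissected embryos. The choice had capped the mean of every embryo kind, over both crosses, and so limited what embryo levels the genes could take. This holds for each comparison between embryo samples that follows, and their counts describe the chosen genes only. At 5 DAP, 30 of the 150 genes were lower and 3 higher in MB than in BM embryos, where 12.1% of all genes tested were called lower, 12.2% higher and 24.3% in all. Of the genes past the endosperm floor, 15% were lower, 14.5% higher and 29.4% called in all. The median log2 fold change of the 150 was -0.61, against 0.02 for all genes. With a filter on reads in the 6 embryo libraries alone, 102 of the 150 genes were tested, 33 lower and 1 higher. GRMZM2G437435 (79.1 ± 0.361 CPM in BM and 11.7 ± 0.669 CPM in MB) had a log2 fold change of -2.82 ± 0.09 (adjusted p = 3.26e-12).

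GRMZM2G073908 read 43.2, 45.3 and 41.6 CPM in BM and 8.09, 11.1 and 7.38 CPM in MB embryos at 5 DAP (log2 fold change -2.36 ± 0.15, adjusted p = 9.61e-09). GRMZM2G026956 read 18.1, 14.5 and 20.3 CPM in BM and 4.33, 2.32 and 4.57 CPM in MB (-2.29 ± 0.24, adjusted p = 3.41e-06). Neither overlapped between the crosses. Endo1 (-2.002 ± 0.31), GRMZM2G091054 (-1.98 ± 0.06), TA1 (-1.81 ± 0.09), sdh1 (-1.76 ± 0.27), GRMZM2G097030 and hag (both -1.61) and bZIP46 (-1.45 ± 0.37) were also lower in MB. The 3 genes higher in MB were GRMZM2G113002 (1.97 ± 0.659 in BM and 4.91 ± 1.29 CPM in MB, log2 fold change 1.24 ± 0.35), GRMZM2G152390 and GRMZM5G800723, the last 2 under 1 CPM in both crosses and named after their values were seen. Without MB replicate 3 the count was 19, all lower in MB, and with a single fit of 48 libraries it was 17.

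At 11 DAP the crosses were compared because MB had been seen to lie above BM in summed level. The direction found in the same libraries restates those sums and is no separate support for them. Here 13 of the 150 genes were higher and none lower in MB embryos (8.67% of the 150), where 6.27% of all genes tested were called higher, 5.79% lower and 12.1% in all (past the floor 9.98%, 8.15% and 18.1%). The share higher was thus near the background. At an unadjusted p under 0.05, 31 of the 150 were higher and 3 lower, and DESeq2 called 10 higher and none lower. The shares over all genes at these settings were not counted, so nothing is read from these counts. The median log2 fold change of the 150 was 0.46, against 0.00 for all genes tested. GRMZM2G073908 read 1.21, 1.36 and 2.94 CPM in BM and 10.2, 8.71 and 7.66 CPM in MB (log2 fold change 2.31 ± 0.30, adjusted p = 0.000154). GRMZM2G324131 read 0.531, 0.853 and 0.749 CPM in BM and 1.72, 3.58 and 4.67 CPM in MB (2.26 ± 0.42, adjusted p = 0.0022).

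GRMZM2G097030 read 17.6, 21.4 and 28.1 CPM in BM and 70.7, 89.6 and 117 CPM in MB embryos at 11 DAP (log2 fold change 2.11 ± 0.22, adjusted p = 0.000677). GRMZM2G091054 (1.65 ± 0.32, adjusted p = 0.0294) and sdh1 (0.59 ± 0.15, adjusted p = 0.0209) were higher in MB as well, whereas endo1 and bZIP46 did not pass. The count was 7 without BM replicate 2, 7 without MB replicate 2, 5 without MB replicate 3 and 25 without BM replicate 3, and it was 21 with the replicate number as a block and 2 with a single fit of 48 libraries.

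The comparison at 13 DAP was likewise added after the sums, which were lower in MB, had been seen. Of the 150 genes, 36 were lower and 4 higher in MB, where 9.55% of all genes tested were called lower, 12.3% higher and 21.9% in all (past the floor 11.2%, 16.8% and 28%). The median log2 fold change of the 150 was -0.88, against -0.03 for all genes. TA1 fell from 228 ± 48.9 to 12.002 ± 0.962 CPM (log2 fold change -4.16 ± 0.17), GRMZM2G091054 from 115 ± 36.8 to 8.59 ± 1.05 CPM (-3.65 ± 0.34) and endo1 from 13.5 ± 4.65 to 1.18 ± 0.229 CPM (-3.43 ± 0.29).

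GRMZM2G090505 read 3.54, 5.39 and 3.88 CPM in BM and 0.0785, 0.144 and 0.154 CPM in MB embryos at 13 DAP (log2 fold change -4.91 ± 0.45, adjusted p = 8.97e-07). The bZIP46 gene read 2.68, 2.07 and 2.06 CPM in BM and 0, 0.0720 and 0.154 CPM in MB (-4.68 ± 0.61, adjusted p = 3.76e-05). GRMZM2G026956 had no read in the 3 MB libraries and 1.82, 2.90 and 1.82 CPM in BM, and was at least 28.8-fold lower in MB, taking 3 counts over the MB group, or 0.0758 CPM, as the bound. No MB library of these genes reached the lowest BM library.

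The 4 genes higher in MB embryos at 13 DAP were GRMZM2G064083 (0.370 ± 0.197 in BM and 2.08 ± 0.686 CPM in MB), GRMZM2G079956 (0.558 ± 0.131 and 2.87 ± 0.670 CPM), GRMZM2G053869 (1.68 ± 0.766 and 4.34 ± 0.615 CPM) and GRMZM2G315767, which was under 1 CPM in both and is named after its values were seen. Some abundant genes showed no call: GRMZM2G092581 stood at 71.4 ± 19.3 CPM in BM and 60.6 ± 13.4 CPM in MB, and GRMZM5G850455 at 27.1 ± 3.90 and 22.8 ± 7.24 CPM. The count of genes called was 25 without BM replicate 2 and 26 without MB replicate 3. It was 24 with a filter on the 6 libraries alone, which tested 62 of the 150, 22 with at least 1 CPM in 3 libraries and 15 with a single fit of 48 libraries.

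Endosperm and embryo crosses share no libraries, so the calls can be set side by side. Of the 51 genes called in endosperm, 14 were also called in 5 DAP embryos (27.5% of the endosperm calls and 42.4% of the embryo calls), 12 of them lower in MB in both and 2 in opposite directions. Of all 150 genes, 34% were called in endosperm, 22% in 5 DAP, 26.7% in 13 DAP and 8.67% in 11 DAP embryos, and the overlaps were not tested against these shares. With 13 DAP embryos 14 genes were shared (27.5% and 35.0%), 9 lower and 1 higher in MB in both and 4 opposite. With 11 DAP embryos 6 were shared (11.8% and 46.2%), 2 higher in MB in both and 4 opposite. GRMZM2G438386 was not called in 5 DAP embryos and GRMZM2G437435 not in endosperm, whereas GRMZM2G324131 was higher in MB both in endosperm and in 11 DAP embryos.

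Whether the cross difference itself differed between endosperm and hand-dissected embryo at 5 DAP was tested with an interaction term over 12 libraries. The difference, MB over BM in endosperm relative to that in embryo, was called for 46 of the 150 genes, 36 higher and 10 lower, where 17.6% of all genes tested were called, 9.91% higher and 7.65% lower (past the floor 24.3%, 15.5% and 8.79%). With a single fit of 48 libraries the count was 2. The choice had set a floor of 5 CPM in each endosperm library and had capped the mean of the embryo kind. Both limit this difference, so the counts describe the chosen genes only. GRMZM2G437435 (log2 difference 2.78 ± 0.11, adjusted p = 1.67e-11), MYB129 (2.28 ± 0.39), endo1 (2.08 ± 0.34), GRMZM2G091054 (1.54 ± 0.12), sdh1 (1.39 ± 0.28), bZIP46 (1.38 ± 0.24), GRMZM2G097030 (1.15 ± 0.14) and TA1 (1.05 ± 0.11) had a less negative or more positive difference in endosperm. AGA3a (-1.40 ± 0.33, adjusted p = 0.00574) and GRMZM2G438386 (-2.92 ± 0.39, adjusted p = 7.91e-05) had a more negative one.

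Across age in hand-dissected embryos more of the 150 genes fell than rose in both steps up to 9 DAP, and more rose than fell from 9 to 11 DAP. These are counts for each step and do not trace the course of the same genes, and they compare kind means whose highest value the choice had used. Each neighbouring pair of ages was tested with cross as a covariate, and neighbouring tests share the libraries of the age between them. From 5 to 7 DAP 36 genes fell and 9 rose, where 19% of all genes tested were called lower, 18.3% higher and 37.3% in all (past the floor 18.5%, 25.5% and 44%). From 7 to 9 DAP 40 fell and 5 rose, where 19.3% were called lower, 16.5% higher and 35.8% in all (past the floor 20.1%, 21% and 41.1%). From 9 to 11 DAP 31 rose and 1, GRMZM2G437435, fell, where 11.5% were called higher, 10.3% lower and 21.9% in all (past the floor 12.4%, 16.1% and 28.5%). The median log2 change of the 150 was -0.55, -0.50 and 0.82 in these steps.

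From 5 to 7 DAP endo1 fell from 81.5 ± 56.0 to 17.3 ± 8.89 CPM (SD, n = 6, log2 change -1.99 ± 0.33, adjusted p = 0.000982) and GRMZM2G073908 from 26.1 ± 19.0 to 5.999 ± 3.97 CPM (-1.96 ± 0.22, adjusted p = 1.19e-05). GRMZM2G077495 fell from 10.3 ± 5.25 to 2.09 ± 1.34 CPM (-2.20 ± 0.33, adjusted p = 0.00012). Only the last of these was free of overlap between the ages. GRMZM5G850455 rose from 7.07 ± 3.31 to 28.4 ± 8.06 CPM (2.09 ± 0.26, adjusted p = 6.34e-05) and did not overlap. GRMZM2G113002 (0.77 ± 0.25) and AGA3a (0.70 ± 0.25) rose as well, with overlap, and each lost its call without several of the libraries.

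From 7 to 9 DAP GRMZM2G174396 fell from 3.10 ± 1.13 to 0.206 ± 0.318 CPM (log2 change -3.82 ± 0.55, adjusted p = 9.66e-05), AGA3a from 2.42 ± 0.757 to 0.424 ± 0.270 CPM (-2.58 ± 0.37, adjusted p = 5.34e-05) and GRMZM2G323888 from 3.67 ± 1.57 to 0.653 ± 0.390 CPM (-2.46 ± 0.30, adjusted p = 1.18e-05). None overlapped between the ages. The 5 genes that rose were GRMZM2G056629 (0.930 ± 0.410 to 2.97 ± 1.08 CPM), GRMZM2G114988 (3.40 ± 1.2 to 7.01 ± 1.51 CPM) and hag (3.69 ± 2.34 to 9.56 ± 5.70 CPM), together with GRMZM2G001421 and GRMZM2G021587, which are named after their values were seen. The call of hag was lost without any of 10 of the 12 libraries. With at least 1 CPM in 3 libraries, which tested 82 of the 150, the count for this step was 29.

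From 9 to 11 DAP hag rose from 9.56 ± 5.70 to 51.9 ± 16.6 CPM (log2 change 2.59 ± 0.41, adjusted p = 0.00297) and GRMZM2G052266 from 0.916 ± 0.622 to 8.02 ± 2.58 CPM (3.19 ± 0.41, adjusted p = 0.000464). AC149829.2_FG002 rose from 0.586 ± 0.388 to 3.00 ± 1.63 CPM (2.35 ± 0.44, adjusted p = 0.00216). No library at 9 DAP reached the lowest at 11 DAP for these genes. The sorbitol dehydrogenase gene sdh1 (2.02 ± 0.32, adjusted p = 0.00264), TA1 (1.55 ± 0.30, adjusted p = 0.00621) and bZIP46 (0.79 ± 0.27, adjusted p = 0.0431) rose with them, while GRMZM2G437435 fell from 5.54 ± 3.84 to 1.46 ± 0.853 CPM (-1.87 ± 0.41, adjusted p = 0.00657). The count was 20 without MB 9 DAP replicate 1, 18 without MB 9 DAP replicate 2, and 20 without either MB 11 DAP replicate 2 or 3.

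From 11 to 13 DAP 2 genes passed the test, GRMZM2G031733 (2.48 ± 0.852 to 0.665 ± 0.596 CPM, log2 change -1.99 ± 0.53, adjusted p = 0.0447) and GRMZM2G076345 (1.38 ± 0.727 to 0.296 ± 0.183 CPM, -1.90 ± 0.43, adjusted p = 0.0269), both lower, where 2.31% of all genes tested were called lower, 3.49% higher and 5.8% in all (past the floor 3%, 5.45% and 8.45%). At an unadjusted p under 0.05 there were 41, DESeq2 called 23, limma on FPKM 7, a single fit of 48 libraries 26 and the fit with the replicate number as a block 0. The shares over all genes at these settings were not counted, so nothing is read from these counts. The median log2 change of the 150 was -0.92, against -0.02 for all genes tested. A negative estimate was found for 133 of the 150, and the share of all genes with one was not counted. The crosses moved unequally over this step, as the values by cross show: sdh1 went from 187 ± 13.9 to 131 ± 36.6 CPM in BM and from 267 ± 68.6 to 21.3 ± 11.2 CPM in MB. Leaving out a library moved the count between 0 and 10: it was 0 without MB replicate 1, 2 or 3 of either age, 6 without BM 13 DAP replicate 1 or 2 and 10 without BM 11 DAP replicate 1.

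Within LCM embryos, 18 of the 150 genes were lower and 1 higher at 5 than at 3 DAP, where 5.04% of all genes tested were called lower, 2.02% higher and 7.07% in all (past the floor 5.97%, 2.17% and 8.14%). The median log2 change of the 150 was -0.84. The counts in this material were patchy between replicates. GRMZM2G021587 read 2.36, 6.65 and 4.11 CPM in BM and 21.9, 9.77 and 3.74 CPM in MB at 3 DAP, and 0.517, 0 and 0.279 CPM in BM and 0.278, 0.0858 and 1.46 CPM in MB at 5 DAP. Its log2 change was -4.36 ± 0.75 (adjusted p = 0.00304), and the ages did not overlap.

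TA1 fell from 45.0 ± 33.4 to 6.09 ± 6.30 CPM (n = 6, log2 change -2.96 ± 0.64, adjusted p = 0.0123), and endo1 fell by 2.93 ± 0.35 on the log2 scale (adjusted p = 0.000215). The sdh1 gene fell by 2.18 ± 0.39 (adjusted p = 0.00381), GRMZM2G092581 by 1.94 ± 0.31 (adjusted p = 0.00185) and MYB129 by 4.74 ± 1.32 (adjusted p = 0.0406), all on the log2 scale. Without the pair the log2 changes were -3.83 for GRMZM2G021587, -2.66 for TA1 (adjusted p = 0.0419), -3.17 for endo1, -1.74 for sdh1 and -1.74 for GRMZM2G092581, all still called, and -2.43 for MYB129, which was not (adjusted p = 0.23). GRMZM2G089854 (7.03 ± 10.4 to 0.397 ± 0.550 CPM, adjusted p = 0.0482) lost its call without any of 9 of the 12 libraries and kept it without the pair (-4.36, adjusted p = 0.0129).

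The gene that rose was GRMZM2G091054, with 51.1, 0 and 33.5 CPM in BM and 20.02, 30.4 and 94.5 CPM in MB at 5 DAP. At 3 DAP its only reads were in MB replicate 1, a library that stood apart. Its log2 change was 8.37 with all libraries (edgeR's quasi-likelihood test, adjusted p = 0.00313). When that pair was left out no read remained at 3 DAP and the estimate was 11.7 ± 3.03 (SE). The call was then lost (same test, adjusted p = 0.0918). The endosperm marker sum was 40.0 to 86.1 CPM in BM and 161 to 215 CPM in MB at 3 DAP, and 16.7 to 23.3 and 16.1 to 36.7 CPM at 5 DAP. Without the pair the range at 3 DAP was the same in BM and 190.1 to 215 CPM in MB. Of the 7 markers 2 were called lower at 5 DAP and none higher. The 5 embryo-surrounding region genes, a list apart, summed to 2601 to 4606 CPM in BM and 2788 to 7068 CPM in MB at 3 DAP. Without the pair these ranges were 2601 to 4388 and 5574 to 7068 CPM. At 5 DAP that list summed to 3410 to 9293 and 7402 to 29482 CPM, with 1 gene called higher and none lower. The part of these lists in the result was not tested. Without the pair the count of genes called was 18, of which 15 were among the 19. DESeq2 called 32 and a single fit of 48 libraries 60.

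At 5 DAP both collection methods were used, so LCM embryos were compared with hand-dissected ones. LCM samples were lower for 53 of the 150 genes and higher for 17, where 39.3% of all genes tested were called lower, 32.7% higher and 72% in all (past the floor 41.6%, 37.7% and 79.3%). Both arms are embryo kinds whose means the choice had capped, so nothing is read from the share; a filter on the 12 libraries alone tested 103 of the 150, 41 lower and 16 higher. The median log2 difference of the 150, LCM over hand-dissected, was -0.72, against -0.19 for all genes. GRMZM2G073700 stood at 2.94 ± 1.39 CPM in hand-dissected and 0.150 ± 0.0480 CPM in LCM embryos (-3.41 ± 0.44, adjusted p = 2.66e-06). GRMZM2G089854 (6.48 ± 2.27 and 0.397 ± 0.550 CPM, -3.25 ± 0.61) and GRMZM2G042666 (7.66 ± 2.57 and 0.588 ± 0.560 CPM, -3.04 ± 0.52) were lower to a like degree.

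In the other direction, GRMZM2G382379 stood at 3.10 ± 1.34 CPM in hand-dissected and 12.8 ± 3.00 CPM in LCM embryos (log2 difference 2.80 ± 0.28, adjusted p = 1.22e-07), without overlap. GRMZM2G428216 (0.338 ± 0.284 and 2.29 ± 1.86 CPM, 3.57 ± 0.48) and GRMZM2G068202 (1.62 ± 0.845 and 7.29 ± 4.26 CPM, 3.00 ± 0.47) were higher in LCM embryos with some overlap. Among the named genes, hag (2.12 ± 0.57) and EREB92 (1.39 ± 0.22) were higher in LCM embryos, and TA1, sdh1, bZIP46, MYB129, CA and AGA3a were lower. The 11 transfer layer genes summed to 600.4 to 3958 CPM in hand-dissected and 9.87 to 89.9 CPM in LCM embryos, and 9 of them were lower in LCM and none higher. Of the endosperm markers 3 of 7 were lower and none higher. The 5 embryo-surrounding region genes lay the other way, at 1864 to 10688 CPM in hand-dissected and 3410 to 29482 CPM in LCM embryos, with 3 higher and none lower, and of the embryo markers 4 of 8 were higher and 1 lower. Their part in the result was not tested.

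**Figure D5:**
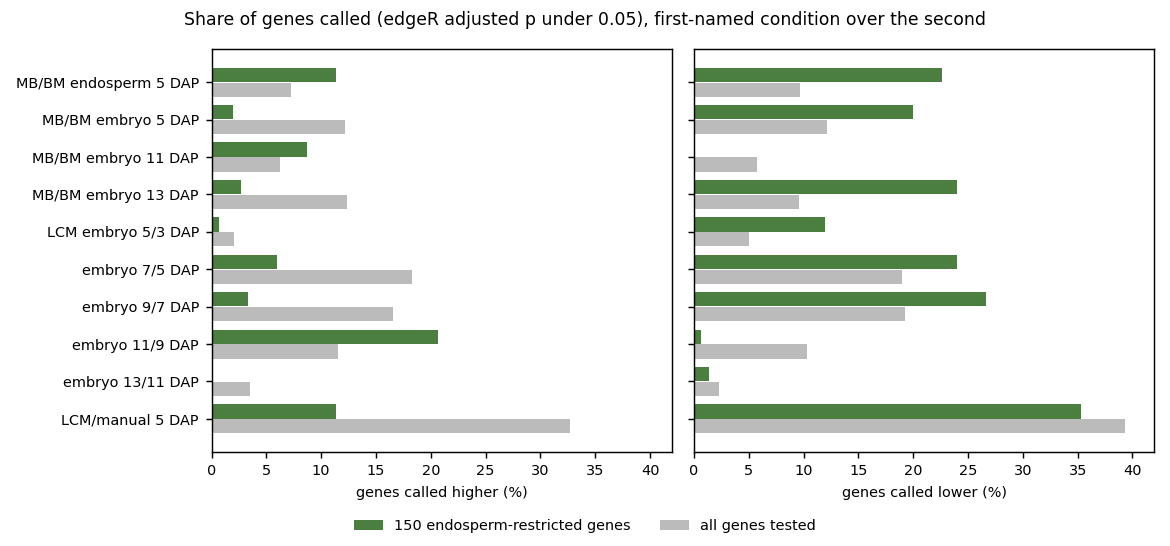
Share of genes called higher (left) and lower (right) in each comparison, in percent, for the 150 genes (green) and for all genes tested (grey), by edgeR's quasi-likelihood test at an adjusted p under 0.05. The bar of the 150 is the longer in several comparisons. Examples are genes lower in MB in endosperm and in embryos at 5 and 13 DAP, and genes higher at 11 than at 9 DAP. For LCM against hand-dissected embryos both bars of all genes are longer. The choice had capped the mean of every embryo kind, and the 150 passed the filter through their endosperm level. Shares in comparisons between embryo samples therefore describe the chosen genes only.

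In the annotation the genes were spread over all 10 chromosomes. Of the 103 with an entry, 17 lay on chromosome 1 (16.5%, against 15.9% of the genes past the floor), 16 on chromosome 2 (15.5% against 11.6%), 14 on chromosome 8 (13.6% against 9.31%) and 5 on chromosome 4 (4.85% against 10.1%). The shares are given as counts without a test. Within 15 gene places of each other there were 8 pairs of neighbours, a number given without a background and from which nothing is read. The closest was endo1 with GRMZM2G167576, 3 places apart on chromosome 9, followed by GRMZM2G068202 with GRMZM2G039996 and GRMZM2G039996 with GRMZM2G343317, each 5 places apart on chromosome 2, and by sdh1 with GRMZM2G079956, 8 places apart on chromosome 1. GRMZM2G079956 had no read in any of the 12 LCM libraries, whereas its neighbour sdh1 had reads in each of them.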

How the data were processed

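The deposited table gives, per its file headers, unnormalised read counts and FPKM for each gene model, both made by the authors. The submitters' processing notes name TopHat, HTSeq, Cufflinks 2.2.1 and FastQC. Build, annotation release and strandedness were not given in the sources used here; genes that overlap, lie antisense or have near-identical copies are therefore uncertain. The members and gene lists were chosen with earlier results of these data known.

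CPM was the count over the sum of all gene models in that library. Each comparison was fitted on its own libraries with edgeR 4.0.16 in R 4.3.3 (TMM, robust dispersion and quasi-likelihood fits) over the 25454 genes that filterByExpr kept across the 16 groups of all 48 libraries; all 150 members were kept, through their endosperm level. Genes were called at an adjusted p under 0.05 (Benjamini-Hochberg). The replicates are biological, per the series' design text, and no pair within a group agreed within sampling noise (chi-square per degree of freedom at least 2.24). A group without a read was bounded at 3 counts over the group, which covers counting error only. The fits were tested on simulated data.

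Genes named are the 8 with the highest endosperm CPM, those with an informative symbol, the 6 largest changes each way between the endosperm crosses without overlap, the 3 largest each way in the other comparisons with a mean of at least 2 CPM in an arm (for the interaction, in any of its groups), and 3 on each side of the threshold. The comparisons of crosses at 11 and 13 DAP were added after the summed levels had been seen. Alternatives were RLE factors, DESeq2 1.42.0, other filters, a replicate block, a single fit of 48 libraries, a fold threshold, limma 3.58.1 on log2(FPKM + 1) where the FPKM averaged 1 or more, and leaving out each library. Protein and promoter features were not analysed here.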

Additional observations from a re-analysis of the deposited data

Results flagged for a closer look

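For 46 of the 150 genes the reciprocal difference in endosperm at 5 DAP differed from that in hand-dissected embryos of the same age, by the test of the interaction term (edgeR's quasi-likelihood test, adjusted p under 0.05), where 17.6% of all genes tested and 24.3% of those past the endosperm floor were called. With all 48 libraries in a single fit the count was 2. The choice had set a floor in endosperm and a cap on the embryo mean, so these counts describe the chosen genes only. Those with the largest differences each way, MB over BM in endosperm relative to embryo on the log2 scale, were the following. GRMZM2G429378 (3.91 ± 1.18, SE, adjusted p = 0.0385) read 10.5, 11.7 and 15.6 CPM in BM and 24.4, 24.8 and 25.9 CPM in MB endosperm, and its embryo reads came mostly from BM replicate 2, at 1.58 CPM. Its call was lost without 8 of the 12 libraries. GRMZM2G055752 (3.83 ± 0.96, adjusted p = 0.0111) overlapped between the crosses in endosperm, at 12.8 to 20.3 CPM, and had 0.611, 1.83 and 0.233 CPM in BM and 0.0722, 0.0749 and 0 CPM in MB embryos. GRMZM2G315767 (3.51 ± 0.83, adjusted p = 0.00545) had 0.339, 1.08 and 0.466 CPM in BM and 0.144, 0 and 0 CPM in MB embryos.

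In the other direction, GRMZM2G152390 (-3.59 ± 0.73, adjusted p = 0.0017) had 0.136, 0 and 0.0777 CPM in BM and 1.30, 0.749 and 0.563 CPM in MB embryos. GRMZM5G800723 (-3.29 ± 0.81, adjusted p = 0.0101) had 0.0679, 0 and 0.155 CPM in BM and 1.30, 0.375 and 0.626 CPM in MB embryos. GRMZM2G438386 (-2.92 ± 0.39, adjusted p = 7.91e-05) differed through endosperm, where the crosses lay at 87.7 ± 8.13 and 8.95 ± 2.73 CPM (SD, n = 3), while its embryo libraries overlapped. The first 5 of these genes were near the limit of detection in embryos, so their estimates rest on few reads.

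Each sample kind was checked for a library far from the others in the summed level of the 150 genes, their median CPM and the number without a read. None of these 24 checks found such a library. Each check pooled both crosses, so a library far from the others of its own cross could be missed.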

How the results depend on the processing

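With all 48 libraries in 1 fit, the count of the 150 genes called between crosses was 3 in endosperm, 17, 2 and 15 in embryos at 5, 11 and 13 DAP and 2 for the interaction, and it was 26 from 11 to 13 DAP and 60 between the LCM ages; the cause was not tested. A log2 fold change of at least 1 left 13 genes in endosperm. A filter on the comparison's own libraries gave 24 genes between crosses at 13 DAP, and at least 1 CPM in 3 libraries gave 22 there and 29 from 7 to 9 DAP, settings that test fewer of the 150 genes. DESeq2 gave 23 from 11 to 13 DAP and 32 between the LCM ages, and limma on FPKM 7 from 11 to 13 DAP. Samples of the same number did not all deviate together (in endosperm correlations were 0.0408 to 0.0722, each library correlating best with its own number), so the numbers were not taken as pairs; with the replicate block the counts were 71 in endosperm, 21 between crosses at 11 DAP and 0 from 11 to 13 DAP. Leaving out each library moved the counts between 38 and 78 in endosperm, 19 and 49, 5 and 25, and 25 and 41 in embryos at 5, 11 and 13 DAP, 38 and 55 for the interaction, 33 and 54, 35 and 44, 18 and 41, and 0 and 10 over the age steps, 14 and 24 between the LCM ages, and 63 and 82 between collection methods. Of the 150 genes, 76 stayed in the set when ranked without the 2 LCM kinds, 102 by FPKM, 116 with a constant of 2, and 139 to 147 without an endosperm library. Over 58 results for named genes, 975 of 1070 alternative values kept direction and call, 95 kept direction only and 0 reversed. Genes at a few reads per embryo library are limited by depth.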
